A study of Homo sapiens with 6 samples.

Results

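The 8 transcription factors of the ETS family described here are ERG, FLI1, ETS1, ETS2, ELK3, ETV6, ELF1 and GABPA. They were read by 27 of the 54675 probe sets on the array, namely all probe sets whose platform annotation gives exactly 1 gene symbol that is a member. None of the 8 symbols occurs on a probe set with several symbols. Cells were human umbilical vascular endothelial cells (HUVECs), primary endothelial cells of the umbilical cord obtained commercially and cultured with serum, VEGF and other growth factors. They were transfected with an siRNA against ANRIL, a long noncoding RNA listed as CDKN2B-AS1, or with a scrambled control siRNA, and each group had 3 samples with 1 Affymetrix Human Genome U133 Plus 2.0 array each. The series' design speaks of 3 sets of cells, but no label says whether these were separate donors or cultures, so p-values measure the spread between these samples, which may be technical. A single siRNA duplex was used against ANRIL. Its strands are printed because they define the treatment, 5′ to 3′, with bases 2 to 8 of the antisense strand in capitals. These are its seed only if the 27-base strand acts as printed, without being shortened in the cell, which was not tested.

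ANRIL siRNA, sense strand: ggauaugugccaugaguaagaauaa
ANRIL siRNA, antisense strand: uUAUUCUUacucauggcacauauccau

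ETS factors share a DNA-binding domain that reads sites with a GGAA core. In endothelium ERG and FLI1 maintain the expression of junction, receptor and lineage genes, and many endothelial enhancers carry ETS sites. ETS1 and ETS2 are activators that respond to growth factor signalling through ERK, and ELK3 belongs to the ternary complex factors, which work with SRF. ETV6 is a repressor needed for blood cell development, ELF1 is an activator of haematopoietic and endothelial genes, and GABPA is the DNA-binding subunit of GABP, which serves many housekeeping and mitochondrial promoters.

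Values below are deposited log2 intensities after RMA, so a difference of 1 is a 2-fold change, and each difference subtracts the mean of the control arrays from that of the ANRIL siRNA arrays. Array medians lay between 6.14 and 6.23. The target of the siRNA gave no check of the knockdown: its 1 probe set, at percentile 9.39 of mean signal, differed by −0.10 ± 0.10 (SE, n = 3 per group, limma adjusted p = 0.666). All 10 endothelial markers looked up, among them PECAM1, CDH5, VWF and KDR, lay at percentile 87.9 or above.

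Promoter sequence is shown for ERG, ELK3, ETV6 and GABPA. ELK3 had the largest difference at a brightest probe set, and ETV6 had the most probe sets below 0, all 5. ERG has the clearest endothelial role, and GABPA was the member that was not lower. Each sequence is the 250 bases before the annotated start, on the gene's strand, from RefSeq on GRCh38.p14. GGAA and its reverse complement TTCC are in capitals. Where RefSeq lists several starts, the most upstream is printed.

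ERG, chr21:38660668-38660917, minus strand: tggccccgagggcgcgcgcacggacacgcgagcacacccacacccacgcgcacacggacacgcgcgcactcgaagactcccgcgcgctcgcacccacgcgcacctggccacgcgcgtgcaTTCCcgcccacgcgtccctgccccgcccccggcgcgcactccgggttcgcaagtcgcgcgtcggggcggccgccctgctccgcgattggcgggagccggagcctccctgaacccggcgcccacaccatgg
ELK3, chr12:96194125-96194374, plus strand: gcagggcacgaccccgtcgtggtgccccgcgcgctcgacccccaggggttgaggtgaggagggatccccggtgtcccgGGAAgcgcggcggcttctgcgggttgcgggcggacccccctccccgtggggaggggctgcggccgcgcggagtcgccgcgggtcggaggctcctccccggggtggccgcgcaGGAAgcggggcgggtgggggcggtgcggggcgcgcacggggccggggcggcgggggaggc
ETV6, chr12:11649424-11649673, plus strand: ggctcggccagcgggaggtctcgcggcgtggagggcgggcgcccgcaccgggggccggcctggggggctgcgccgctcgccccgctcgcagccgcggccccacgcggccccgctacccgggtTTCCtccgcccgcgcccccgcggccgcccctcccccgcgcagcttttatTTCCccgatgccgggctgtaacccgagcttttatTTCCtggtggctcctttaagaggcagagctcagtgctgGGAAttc
GABPA, chr21:25734722-25734971, plus strand: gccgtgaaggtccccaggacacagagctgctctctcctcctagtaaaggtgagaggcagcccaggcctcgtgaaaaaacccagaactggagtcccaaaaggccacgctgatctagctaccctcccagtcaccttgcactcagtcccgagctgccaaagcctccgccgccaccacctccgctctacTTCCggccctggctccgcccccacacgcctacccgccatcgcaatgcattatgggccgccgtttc

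RefSeq promoters were matched for 6 of the 8 members, with 13 starts in all. GGAA on either strand occurred in 12 of these 13 windows, against 92.7% of all 35116 promoter windows of this length, so its presence is common. The longer ETS site CCGGAAGT, searched on both strands and overlapping GGAA, occurred in 1 window, that of GABPA, against 3.42% of all windows. CAGGAAGT, also searched on both strands, occurred in 0 of the 13, against 2.6% of all windows. A match describes the letters only.

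At the level of the family, 7 of the 8 genes were lower with ANRIL siRNA at their brightest probe set, against 51.4% of all 19775 genes tested, and the median difference was −0.16, against −0.0046. All 8 probe sets are bright, 4 in decile 9 and 4 in decile 10 of mean signal, where 79.3% and 87.1% of all probe sets were below 0, so 7 of 8 is near the share at like signal. GABPA was the exception on the deposited values, and it too lay below 0 (−0.034) with arrays centred on their medians. The mean of the 8 brightest probe sets lay between 10.1 and 10.2 on the control arrays and between 9.92 and 10.03 on the ANRIL siRNA arrays. None of the differences passed the threshold: limma called 0 of the 8 genes at an adjusted p of 0.05, as it called 0% of all 19775 genes, and the smallest adjusted p of a member was 0.147 (ELK3 and ETS1). At an unadjusted p under 0.05, 4 members were lower and 0 higher, where 8.16% of all genes were lower and 9.83% higher. For FLI1, ETS1, ETS2 and ELK3, 4 of 8 genes, every ANRIL siRNA array lay below every control array, against 12.8% of all genes and, at like signal, 24.9% of probe sets in decile 9 and 34.8% in decile 10. For 0 members did every ANRIL siRNA array lie above every control array, against 10.6% of all genes. In a bulk sample, fewer cells that express a gene and less RNA per cell cannot be told apart.

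**Figure D1:**
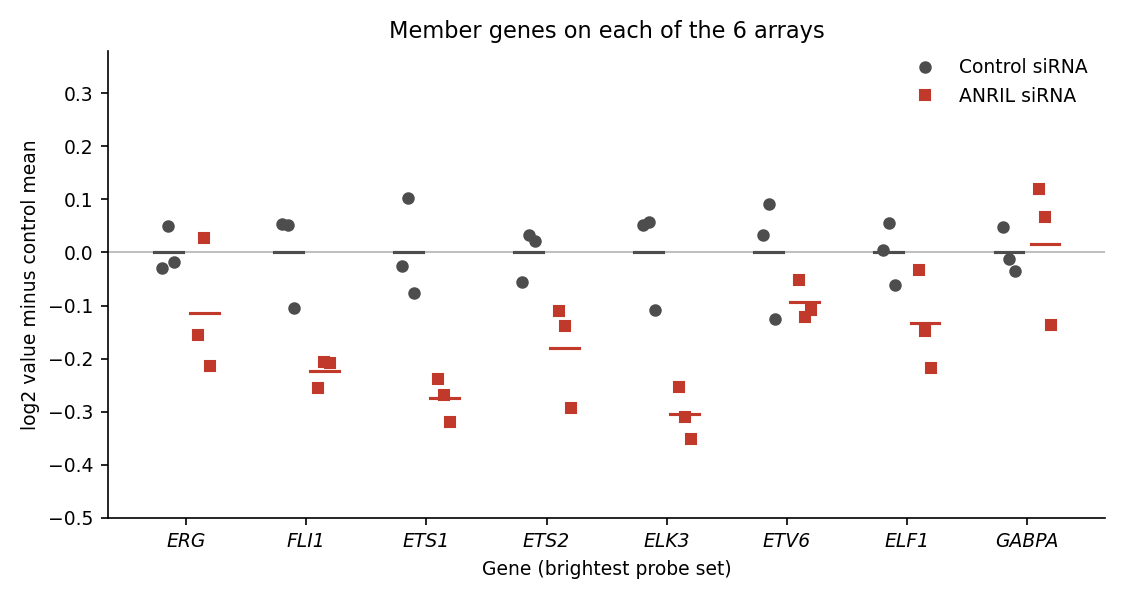
Log2 value of the brightest probe set of each member on each array, after subtracting the mean of the 3 control arrays. Circles are control siRNA, squares ANRIL siRNA, and bars the group means (n = 3 per group). FLI1, ETS1, ETS2 and ELK3 show no overlap between the groups, while ERG, ETV6, ELF1 and GABPA do.

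ERG and FLI1 are the pair of closely related factors most tied to endothelial identity. The brightest ERG probe set (213541_s_at) gave 10.91, 10.99 and 10.92 under control siRNA and 10.78, 10.96 and 10.72 under ANRIL siRNA. ANRIL siRNA replicate 2 lay within the control range, and the difference of −0.11 ± 0.08 (95% interval −0.29 to 0.06) did not pass. Without that array it was −0.18, which is over 1.5 times as large, but without ANRIL siRNA replicate 3 it shrank to −0.064. These were the largest and smallest differences of this probe set with 1 array left out. Another ERG probe set (241926_s_at) gave 10.03, 9.63 and 9.44 under control siRNA and 9.28, 9.17 and 9.17 under ANRIL siRNA. These groups did not overlap, and the difference of −0.50 ± 0.13 was the largest of all 27 probe sets (limma adjusted p = 0.22). Control replicate 1 stood above the other controls, and without it the difference was −0.33. The remaining ERG probe sets differed by −0.06 ± 0.06 and −0.22 ± 0.07, the latter without overlap between the groups. All 4 ERG probe sets were thus below 0, over a range from −0.06 to −0.50.

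The ERG probe sets were also compared within arrays. The brightest minus 241926_s_at, taken within each array, was 1.23 ± 0.32 (SD, n = 3) in controls and 1.62 ± 0.16 with ANRIL siRNA. The groups did not overlap, but the exact permutation p of 0.1 (two-sided) is the smallest that 3 against 3 arrays allow. A suffix of _s_at marks probe sets that match several transcripts and _x_at those whose probes can match other sequences. Which ERG transcripts each probe set reads was not analysed here.

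FLI1 is read by 6 probe sets, of which the 3 bright ones were all lower. The brightest (204236_at) gave 11.08, 11.08 and 10.92 under control siRNA and 10.77, 10.82 and 10.82 under ANRIL siRNA, without overlap and with ANRIL siRNA arrays close together. Its difference was −0.22 ± 0.07 (adjusted p = 0.239 in limma over all 54613 probe sets). The next in signal, 210786_s_at, differed by −0.17 ± 0.09 and its groups overlapped. The third, 211825_s_at, gave 9.28, 9.17 and 9.11 under control siRNA and 8.67, 8.75 and 8.97 under ANRIL siRNA, a 1.31-fold lower level (−0.38 ± 0.09, adjusted p = 0.22). The 3 dim FLI1 probe sets, below the median signal, went both ways, at 0.07 ± 0.09, −0.11 ± 0.08 and 0.17 ± 0.07. The last of these, 234614_at, was higher on every ANRIL siRNA array than on any control array. That separation was lost after cyclic loess, where it differed by 0.11.

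ETS1 and ETS2, the growth-factor-responsive activators, were both lower at their brightest probe sets. ETS1 (224833_at) gave 10.53, 10.66 and 10.48 under control siRNA and 10.32, 10.29 and 10.24 under ANRIL siRNA. The lowest control lay above the highest ANRIL siRNA array, and the difference was −0.28 ± 0.07 (95% interval −0.43 to −0.12, limma adjusted p = 0.22). The other ETS1 probe sets were dim and differed in sign: 214447_at differed by 0.19 ± 0.09 with overlapping groups, and 1555355_a_at by −0.14 ± 0.08 without overlap. Taken within each array, the brightest ETS1 probe set minus 214447_at was 4.60 ± 0.21 (SD, n = 3) in controls and 4.13 ± 0.12 with ANRIL siRNA (exact permutation p = 0.1).

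ETS2 gave 8.83, 8.92 and 8.91 under control siRNA and 8.77, 8.74 and 8.59 under ANRIL siRNA at 201328_at, a difference of −0.18 ± 0.07. At 201329_s_at it gave 7.97, 8.04 and 8.15 against 7.78, 7.85 and 7.83, a difference of −0.24 ± 0.07. Neither pair of groups overlapped, and neither difference passed (adjusted p = 0.293 and 0.233, limma). The third ETS2 probe set, at percentile 8.86 of mean signal, differed by 0.11 ± 0.09.

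ELK3 had the largest difference at a brightest probe set and the smallest p of the 8 genes. At 221773_at it gave 11.35, 11.36 and 11.19 under control siRNA and 11.05, 10.99 and 10.95 under ANRIL siRNA, which is 1.24-fold lower (−0.30 ± 0.07, 95% interval −0.46 to −0.14). The groups did not overlap, with an SD of 0.09 among control arrays and 0.05 among ANRIL siRNA arrays. Limma gave an adjusted p of 0.22 over all probe sets. The dimmer ELK3 probe set differed by −0.23 ± 0.10, and there ANRIL siRNA replicate 2, at 7.24, lay among the controls. ELK3 ranked 131 of 19775 genes by p in the fit with 1 probe set per gene.

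ETV6, the repressor, was lower at all 5 of its probe sets and without overlap at 4 of them. The exception was the brightest (225764_at), at 9.66, 9.72 and 9.51 under control siRNA and 9.58, 9.51 and 9.52 under ANRIL siRNA, a difference of −0.09 ± 0.07 with overlapping groups. The next, 235056_at, gave 8.58, 8.44 and 8.28 against 8.19, 8.26 and 8.09, a difference of −0.26 ± 0.09. The 3 others, between percentiles 49.1 and 54.2 of mean signal, differed by −0.18 ± 0.07, −0.25 ± 0.08 and −0.23 ± 0.07. At 205585_at, for instance, the values were 6.19, 6.30 and 6.27 against 6.08, 5.94 and 6.03. Adjusted p-values of the 5 lay between 0.231 and 0.564 in limma. Because the brightest probe set stands for a gene in the fit over genes, ETV6 entered there at −0.09 (adjusted p = 0.488), while the mean over its probe sets was −0.20. In size that mean was also larger than the brightest probe set's difference for ERG (−0.22), and smaller for ETS1 (−0.07), FLI1 (−0.11) and ETS2 (−0.10), each by over 1.5 times. With the mean of all probe sets standing for a gene, limma called 0 of the 8.

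ELF1 differed by −0.13 ± 0.07 and −0.14 ± 0.11 at its 2 probe sets, and the groups overlapped at both. Its brighter probe set gave 9.82, 9.87 and 9.76 under control siRNA and 9.78, 9.67 and 9.60 under ANRIL siRNA. GABPA lay closest to 0, with a sign that depended on the scaling. It gave 9.08, 9.02 and 9.001 under control siRNA and 9.16, 9.10 and 8.90 under ANRIL siRNA at the brighter probe set, a difference of 0.02 ± 0.08 whose 95% interval runs from −0.16 to 0.19. The dimmer GABPA probe set differed by 0.05 ± 0.09 (95% interval −0.16 to 0.25), and −0.0032 with centred arrays. These intervals reach the sizes seen at ELF1 and do not show that GABPA was unaffected.

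**Figure D2:**
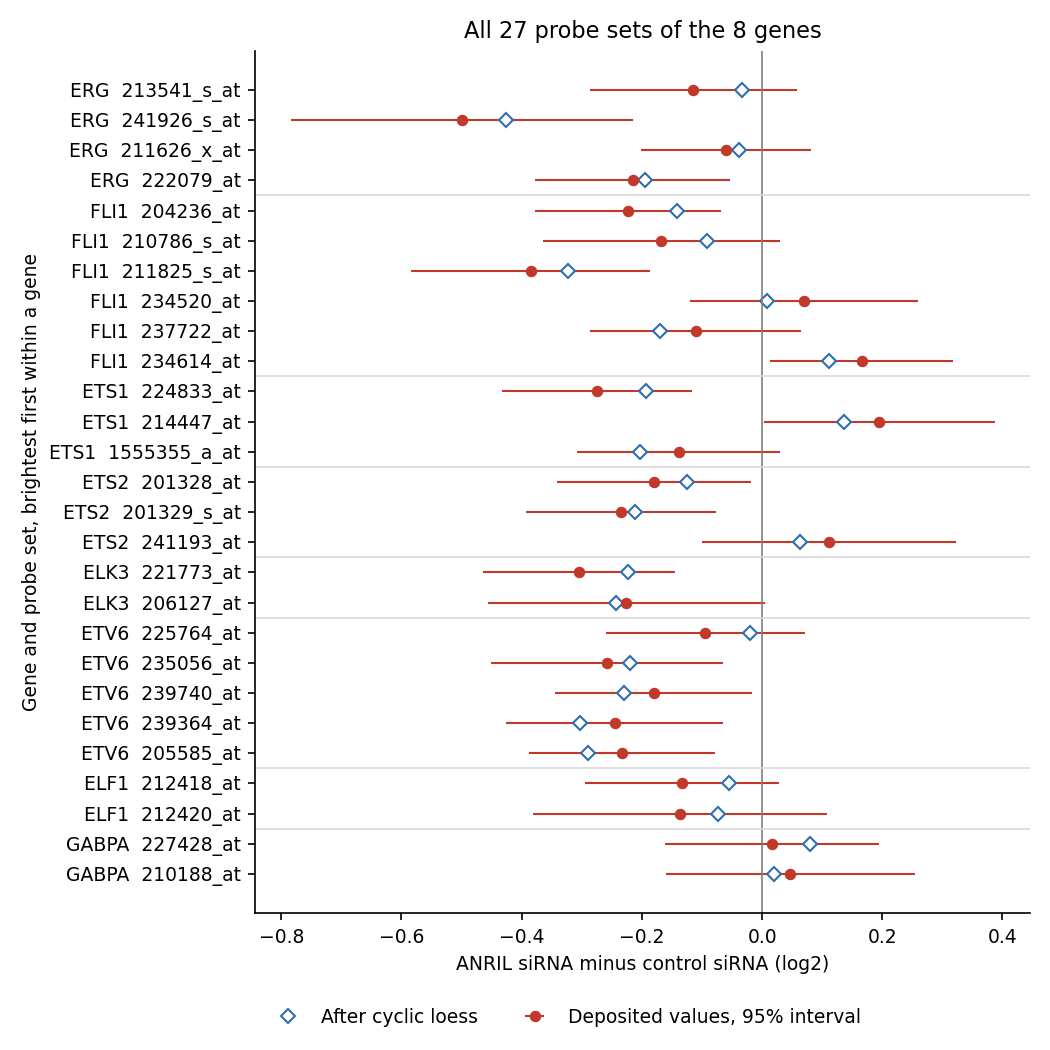
Difference between the groups (ANRIL siRNA less control siRNA, log2) for each of the 27 probe sets, grouped by gene with the brightest first. Filled circles are the deposited values with 95% intervals from limma, and open diamonds the differences after cyclic loess normalization. All 4 ERG and all 5 ETV6 probe sets lie below 0, and both GABPA probe sets lie above it, though not with arrays centred on their medians (−0.034 and −0.0032).

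Counted over probe sets, 21 of 27 were below 0, against 46.1% of all 54613, and the median was −0.17 against 0.01. Limma called 0 of the 27 at an adjusted p of 0.05, as it called 0% of all probe sets, and the smallest adjusted p was 0.22. At an unadjusted p under 0.05, 12 were lower and 2 higher, against 6.14% and 8.96% of all. The groups did not overlap at 13 lower probe sets and 1 higher one, against 9.97% and 11% of all. Probe sets of a gene share their transcripts and are not independent of each other. Of 19 pairs formed by the brightest probe set of a gene and each of its others, 5 had within-array differences without overlap between the groups (exact permutation p = 0.1 each, 0.38 after Benjamini-Hochberg adjustment over the 19 pairs). The share of all such pairs on the array without overlap was not computed. These 5 pairs differed between the groups by 0.38 (ERG), −0.39 (FLI1), −0.47 and −0.14 (ETS1) and 0.14 (ETV6). After cyclic loess the same pairs were at 0.39, −0.25, −0.33, 0.01 and 0.27.

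Signal strength moves with these differences. When all probe sets were ordered by mean signal, the median difference was 0.06 in decile 4. In decile 10, which holds the brightest, it was −0.08, and 34.8% were lower without overlap. The 4 member probe sets in decile 10, the brightest of ERG, FLI1, ETS1 and ELK3, had a median of −0.25, and 3 of them were lower without overlap. The 3 dim ETV6 probe sets lay in deciles 5 and 6, where the median of all probe sets was 0.06 and 0.05 and where 3.13% and 4.14% were lower without overlap. Of the 19 member probe sets above the median signal, 17 were below 0, against 61% of all such probe sets, and 10 were lower without overlap, against 17.2%. After cyclic loess normalization, which equalises the arrays along signal, the decile medians lay between −0.0036 and 0.0050. Of the 27, 21 were then below 0, against 50.1% of all, and 13 lower without overlap, against 8.98% of all probe sets and 12.5% of decile 10. The median of the 8 genes was then −0.09. ERG and ETV6 at their brightest probe sets were close to 0 (−0.03 and −0.02), while ETS1 was at −0.19, ELK3 at −0.22 and the 4 other ETV6 probe sets between −0.22 and −0.30. The array controls for RNA integrity were higher in mean with ANRIL siRNA as well: the 3′ minus 5′ signal of ACTB was 0.54 ± 0.05 (SD, n = 3) with control siRNA and 0.72 ± 0.13 with ANRIL siRNA (exact permutation p = 0.2), and for GAPDH the difference was 0.06, with the smallest possible exact permutation p of 0.1. The groups did not overlap for GAPDH, at −0.01 to 0.01 under control siRNA and 0.04 to 0.09 under ANRIL siRNA, and did for ACTB. Its part in the results was not tested.

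**Figure D3:**
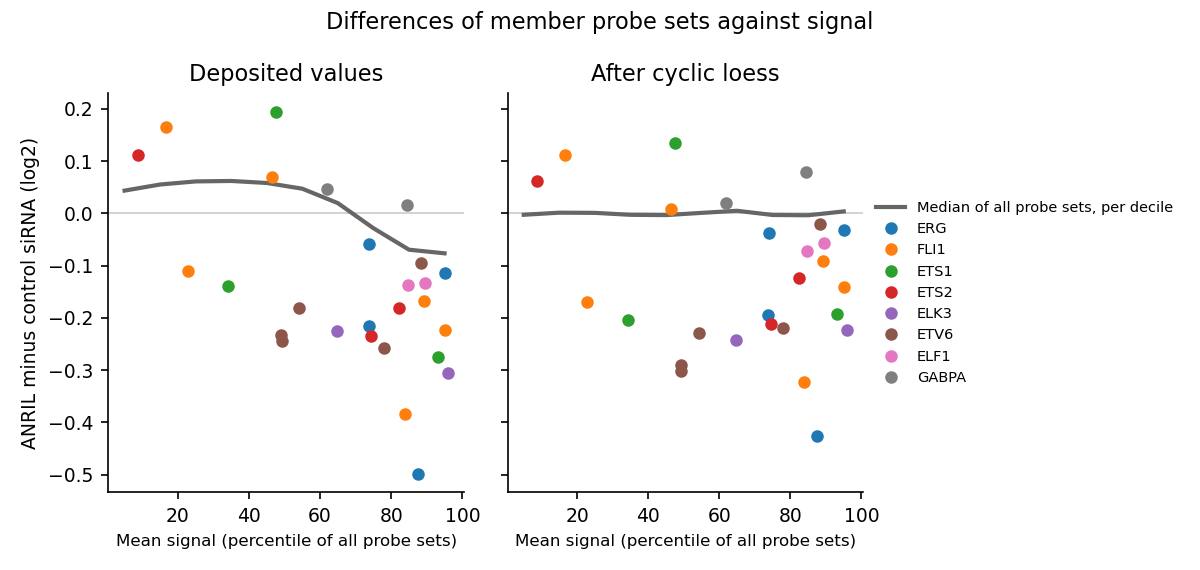
ANRIL siRNA minus control siRNA (log2) of each member probe set against its percentile of mean signal, for the deposited values and after cyclic loess. The grey line is the median of all probe sets in each decile. Before cyclic loess the line runs from 0.06 in decile 4 to −0.08 in decile 10, and after it the line is flat, with most member probe sets still below it.

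An alternative fit used a variance prior that follows signal and is robust to outliers (the trended prior). With it limma called 3 of the 8 genes: FLI1 (adjusted p = 0.0254), ETS1 (0.0116) and ELK3 (0.00308), all lower. That fit called 2.15% of all genes lower. After cyclic loess with the same prior 1 remained called, ELK3 (adjusted p = 0.0318), where 0.379% of all genes were called lower, and ETS1 was at 0.0503. With the trended prior and control replicate 2 left out, 0 of the 8 were called. Without ANRIL siRNA replicate 2 the calls were 4, with ERG added. Over probe sets that prior called 3 of the 27, at FLI1 (211825_s_at), ETS1 (224833_at) and ELK3 (221773_at), against 0.577% of all probe sets lower. The brightest FLI1 probe set (204236_at), which stands for the gene in the fit over genes, was not among these 3 (limma adjusted p = 0.0603). Leaving out control replicate 1, 2 or 3 made the count of probe sets 0, 0 or 5, and leaving out ANRIL siRNA replicate 1, 2 or 3 made it 0, 4 or 1. After cyclic loess the trended prior called 0 of the 27, against 0.106% of all called lower.

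Of the 20 further ETS genes, 19 had a probe set with 1 symbol, and 9 of them were below 0 with a median of 0.01. Limma called 0 of them (unadjusted p under 0.05 at 2 lower and 3 higher, against 8.16% and 9.83% of all genes). ELK1 and ELK4, the ternary complex factors beside ELK3, went opposite ways, at 0.17 ± 0.07 and −0.16 ± 0.07, both without overlap between the groups (adjusted p = 0.266 and 0.263). ELF2 and ELF4, relatives of ELF1, differed by 0.01 ± 0.07 (−0.039 with arrays centred on medians) and −0.11 ± 0.07. The smallest p in this list belonged to the haematopoietic factors SPIC (0.24 ± 0.06) and SPIB (0.23 ± 0.07). SPIC lay at percentile 2.24 of mean signal and SPIB at 52.3.

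Among 26 genes known to be bound by ETS factors in endothelium, 23 were below 0, against 51.4% of all genes, with a median of −0.11. Their groups did not overlap at 13, against 12.8% of all genes. These genes are bright, with 4 in decile 9 and 19 in decile 10, where 79.3% and 87.1% of all probe sets were below 0 and 24.9% and 34.8% were lower without overlap, so the share below 0 is near that at like signal. After cyclic loess 18 were below 0, against 50.1% of all probe sets, with a median of −0.04. At 9 they were then lower without overlap, against 8.98% of all probe sets, 12.4% of decile 9 and 12.5% of decile 10. After repeated quantile normalization 15 were below 0. Limma called 0 of them at its constant prior (10 lower and 0 higher at an unadjusted p under 0.05, against 8.16% and 9.83% of all genes). CDH5, the VE-cadherin of endothelial junctions, gave 12.56, 12.59 and 12.43 under control siRNA and 12.20, 12.34 and 12.21 under ANRIL siRNA (−0.28 ± 0.07, adjusted p = 0.154). ICAM2, an adhesion molecule, differed by −0.29 ± 0.06 and ROBO4, an endothelial guidance receptor, by −0.23 ± 0.06. ENG, a co-receptor of the TGF-beta family, differed by −0.05 ± 0.06 and lay above 0 after cyclic loess (0.02). TIE1 (−0.42 ± 0.06) and CLDN5 (−0.34 ± 0.06) had the smallest p of the list (adjusted p = 0.125 each). TIE1 was at −0.34 after cyclic loess and at −0.13 without the _s_at and _x_at probe sets, where another probe set stood for it. With the trended prior 8 of the 26 were called lower, against 2.15% of all genes, and 5 after cyclic loess with that prior, against 0.379%. Without control replicate 2 the 8 became 4, and 5 without control replicate 1 or ANRIL siRNA replicate 3. The list shares 8 genes with the 10 endothelial markers, and all 10 of these were below 0.

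Of 9 genes of GABP and its mitochondrial targets, 8 were below 0, against 51.4% of all genes, with a median of −0.04. The groups overlapped at all 9, where 12.8% of all genes were lower without overlap, and after cyclic loess 4 were below 0 with a median of 0.03. GABPB1 and GABPB2, which encode the partner subunits, differed by −0.0059 ± 0.07 (0.070 after cyclic loess) and 0.06 ± 0.07. TFAM, TFB1M and TFB2M, which serve mitochondrial gene expression, differed by −0.04 ± 0.08 (0.029 after cyclic loess), −0.08 ± 0.06 (0.0014 after repeated quantile normalization) and −0.12 ± 0.07. NRF1, a regulator of nuclear genes for respiration, differed by −0.17 ± 0.08, and the ubiquitin ligase gene SKP2 by −0.14 ± 0.08. Limma called 0 of the 9 (1 lower at an unadjusted p under 0.05, against 8.16% of all genes).

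Partners and regulators of ETS proteins were measured at 13 of 16 genes, and the rest were not analysed here. Of these 11 were below 0 with a median of −0.06, and 6 after cyclic loess with a median of 0.01. The ERK kinase gene MAPK3 differed by −0.08 ± 0.06 (0.0083 after repeated quantile normalization), SRF by 0.01 ± 0.08 (−0.041 with centred arrays) and the co-activator genes EP300 and CREBBP by −0.10 ± 0.09 and −0.09 ± 0.06. SP100, whose protein binds ETS1, had the smallest p (−0.20 ± 0.06, adjusted p = 0.176) and was called by the trended prior alone (0.0448), not after cyclic loess (0.184). Targets of SRF and ternary complex factors, measured at 9 of 10 genes, had a median of 0.01 with 4 below 0. EGR1 (0.17 ± 0.09), FOSB (0.19 ± 0.06) and CCN1 (0.11 ± 0.07) lay above 0, and FOS (−0.07 ± 0.12) and IER2 (−0.06 ± 0.07, but 0.025 after cyclic loess) below. SRF and FOS stand in both of these lists. Limma called 0 genes of either list, with 1 lower among the partners and 1 higher among the targets at an unadjusted p under 0.05. Of all genes 8.16% were lower and 9.83% higher at that p.

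**Figure D4:**
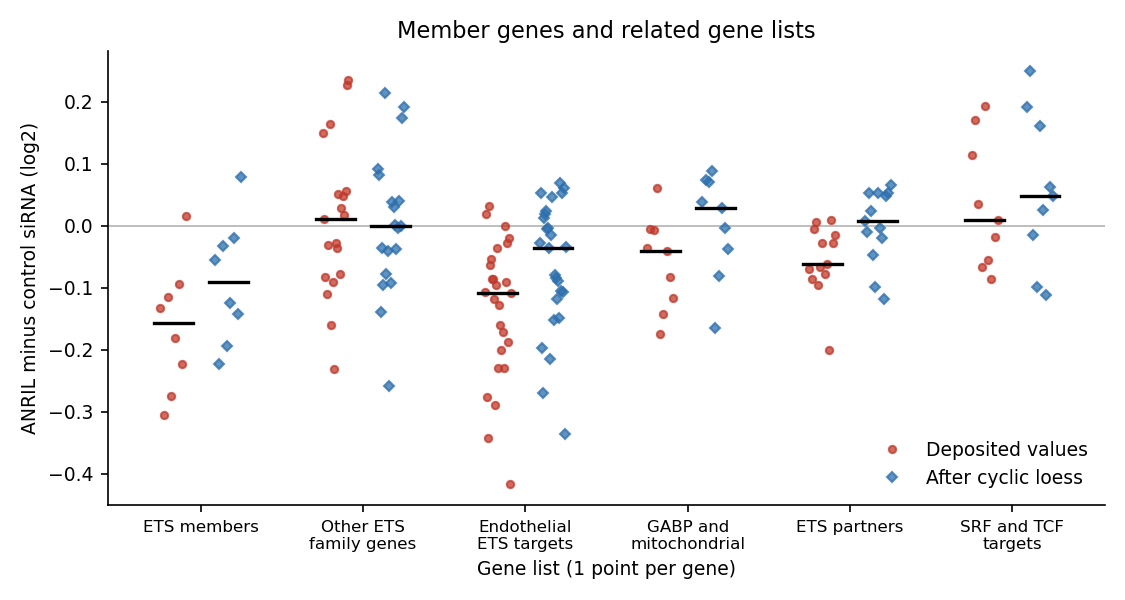
ANRIL siRNA minus control siRNA (log2) of each gene, read at its brightest probe set, for the members and 5 related lists. Circles are deposited values, diamonds values after cyclic loess, and black bars list medians, which move from −0.16 to −0.09 for the members and from −0.11 to −0.04 for the endothelial targets.

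Across the 6 arrays, the 3 genes whose centred values lay closest to those of ERG, among 9886 compared, were ADIRF, LRRC47 and HHEX, with root mean square differences of 0.0097, 0.013 and 0.013. Such closeness is common for a profile this flat, since 1069 genes lay within 0.05 of ERG. For ELK3 the closest were NREP, SOX7 and GIMAP6, at 0.019, 0.025 and 0.026, and 50 genes lay within 0.05.

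Markers of other cells were looked up as well. Leukocyte markers, measured at 8 of 10, had 7 above 0 and a median of 0.17, and their mean level was 5.66 to 5.73 on control and 5.76 to 5.90 on ANRIL siRNA arrays. Most of them lie in deciles 4 to 6 of mean signal, where 30.7% to 34.7% of all probe sets were below 0. After cyclic loess the leukocyte median was 0.10. Smooth muscle markers (9 of 9 measured), fibroblast markers (8 of 8) and epithelial markers (8 of 8) had medians of 0.03, 0.01 and −0.02, and for each of these lists the mean levels of the groups overlapped. These 3 lists mix bright and dim genes. In them 3, 1 and 2 genes were lower without overlap and 0, 1 and 1 higher, against 12.8% and 10.6% of all genes. The lower smooth muscle and epithelial ones lie at percentile 86.6 or above, the fibroblast one at 29.4. Of these 4 lists, 1, 0, 3 and 1 genes lay below percentile 25 of mean signal. Endothelial markers had a mean level of 11.67 to 11.73 on control and 11.48 to 11.55 on ANRIL siRNA arrays. All lie in deciles 9 and 10, where 79.3% and 87.1% of all probe sets were below 0. The endothelial median was −0.17, and −0.10 after cyclic loess. The part of any of these in the ETS results was not tested.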

How the data were processed

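Gene expression was measured in 3 control siRNA and 3 ANRIL siRNA samples of HUVECs, with 1 array each. The authors deposited log2 values for 54675 probe sets; per the submitters' processing notes RMA, affy and limma were used, without versions. The genome build is not given in the sources used here. The RMA method subtracts background, equalises the arrays by quantiles and summarises probes, so small differences shared by many bright or dim probe sets can remain. The number of arrays limits the precision.

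With 62 control probe sets left out, the other 54613 entered 1 linear model each in limma 3.58.1 (R 4.3.3; moderated variances with a constant prior, no covariate), with Benjamini-Hochberg adjustment over all of them and a threshold of 0.05. Adjusted p-values are two-sided. Symbols came from the platform annotation, updated through Entrez identifiers to RefSeq GRCh38.p14: 41091 tested probe sets had 1 symbol, of which 41037 matched, 1801 had several and 11721 none. For fits over 19775 genes the probe set with the highest mean stood for a gene. Coordinates are those of the RefSeq promoters only, since no build is named for the values. On simulated data of 54613 probe sets the model recovered 95% of 1.5-fold and 100% of 2-fold changes, with 16 false calls. The simulated noise was independent between probe sets and held no shift along signal. Both changes exceed the largest member difference, which was 1.41-fold, so the recovery does not tell how often differences of the members' size would be called.

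The members and lists were chosen with earlier results of these data known. The text names all members, the first 4 measured genes of each related list, its 3 genes of smallest p, and for ERG and the member of smallest p the 3 genes above the median signal that lie nearest in their 6 centred values. The alternatives listed with the design were another prior, normalization, filter, block, array weights and choice of probe set, and each array left out; leaving out arrays with the trended prior was added later. Same-numbered arrays did not deviate together (correlations of 0.06, 0.14 and −0.04), so numbers were not taken as pairs.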

Additional observations from a re-analysis of the deposited data

How the results depend on the processing

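The main limits are 3 arrays per group, 1 siRNA duplex and no measured knockdown, with differences of members at or under 0.50 on the log2 scale and a shift between groups that follows signal. No paired analysis entered the results. With the replicate number as a block (replicate block), 0 member probe sets and 0 member genes were called, and of 78 results recomputed 0 changed side of the threshold. Each block holds 1 array of each group, so the differences stay the same by construction and no direction could change. Array weights and array medians also left both counts at 0. Member genes called were 3 with the intensity-trended robust prior, 1 with it after cyclic loess and 2 (ETS1 and ELK3) above the median signal only. The share of all genes called with that filter was not computed, and 61% of all probe sets above the median signal were below 0. With 1 array left out the count of member genes called was 0 under the constant prior. It was 0 to 4 under the trended one, a setting chosen after seeing the data. Member probe sets called were 3 with the trended prior, and 0 to 5 with it and 1 array left out. Pairs of probe sets of a gene without overlap numbered 5 to 9 when 1 array was left out. The counts of member probe sets lower without overlap were 13 to 17 when 1 array was left out. Groups separate more easily with fewer arrays, so neither range can be set against the counts on all arrays. The share of all probe sets without overlap was not computed with 1 array left out.

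Endothelial ETS targets called were 8 with the trended prior, 5 with it after cyclic loess, 5 above the median signal and 2 with arrays centred on medians. The trended prior called 2.15% of all genes lower, and 0.379% after cyclic loess. For the filter and the centring, the share of all genes called was not computed. With 1 array left out the targets called were 0 under the constant and 4 to 12 under the trended prior. After repeated quantile normalization 15 targets lay below 0. ETS partners called were 1 with the trended prior and 0 to 1 with it and 1 array left out (0 under the constant one); other ETS genes called were 0 with the trended prior and 0 to 1 with it and 1 array left out. Partners below 0 numbered 5 under repeated quantile normalization and 6 under cyclic loess (either prior) or without _s_at and _x_at probe sets. GABP and mitochondrial genes below 0 numbered 3 under repeated quantile normalization, 4 under cyclic loess (either prior), 5 with the mean of all probe sets, 2 without _s_at and _x_at probe sets, and 5 to 8 with 1 array left out. Above the median signal 5 other ETS genes and 2 SRF targets lay below 0, since fewer genes were tested.

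Sign changes were all at differences that did not pass. Centred on medians, GABPA was at −0.034 (probe set 227428_at) and −0.0032 (210188_at), ELF2 at −0.039 and SRF at −0.041. With array weights ELF2 was at −0.018, SRF at −0.0098 and GABPB1 at 0.0055. With the mean of all probe sets ELF2 was at −0.078, SRF at −0.0089, SKP2 at 0.072 and GABPB1 at 0.0039. After cyclic loess (either prior) ENG was at 0.025, GABPB1 at 0.070, IER2 at 0.025 and TFAM at 0.029. After repeated quantile normalization ENG was at 0.0064, GABPB1 at 0.075, IER2 at 0.035, MAPK3 at 0.0083, TFAM at 0.036 and TFB1M at 0.0014. Without _s_at and _x_at probe sets TFAM was at 0.046 and TFB1M at 0.060. With 1 array left out the ranges were −0.038 to 0.046 for ELF2, −0.21 to 0.044 for FOS, −0.035 to 0.093 for GABPA at 227428_at, −0.018 to 0.14 at 210188_at, −0.065 to 0.033 for GABPB1, −0.077 to 0.061 for SRF and −0.10 to 0.034 for TFAM. The cause was not tested.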
